A study of Mus musculus with 9 samples.

Results

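Natural killer (NK) cells grown from mouse bone marrow and given transforming growth factor β1 (TGF-β1) were compared with such cells that had first received SIS3, an inhibitor of Smad3. The groups were taken from the labels, and they hold 6 of the 9 libraries of the study. All genes were compared, of which 12212 of the 16876 in the table had enough counts to be tested. The 3 libraries called TGFb came from cells given 5 ng/mL TGF-β1 for 3 h. The 3 libraries called SIS3_TGFb came from cells given 10 µM SIS3 for 3 h and then 5 ng/mL TGF-β1 for 3 h. The marrow came from femurs of C57BL/6 mice and was cultured first with IL-7, Flt3L, SCF and IL-15, then for a week with IL-15 and IL-2. The titles of the SIS3_TGFb samples name SIS3 only, while TGF-β1 is also given in their treatment text. None of the libraries came from cells given SIS3 alone, so a change in the response to TGF-β1 and an effect of SIS3 by itself cannot be told apart. A solvent given to the TGFb cells, a sort of the cells, and whether replicates came from separate mice or cultures are not stated in the labels. The p-values therefore measure the spread between these libraries, which may be technical.

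TGF-β1 binds a pair of receptor kinases that phosphorylate Smad2 and Smad3, which join Smad4 in the nucleus and switch genes on or off. In NK cells this signal is known for restraining killing, cytokine release and activating receptors such as NKp46. SIS3 is a small molecule that blocks phosphorylation of the Smad3 protein, so the level of the Smad3 transcript does not check the treatment. Another system recurs below, the integrated stress response, in which stress-sensing kinases phosphorylate the initiation factor eIF2α. General translation is then lowered while the transcription factor ATF4 is made. ATF4 switches on genes that import, make and load amino acids.

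Expression changed widely, with many small shifts and a smaller set of large rises. Of the genes tested, 5104 changed at an adjusted p below 0.05 (41.8%), 2585 of them upwards (21.2%) and 2519 downwards (20.6%). A log2 change of at least 1 was reached by 283 genes (2.32%), of which 241 rose (1.97%) and 42 fell (0.344%). For 6275 genes (51.4%) all 3 libraries of one group lay above all 3 of the other, and 4940 genes (40.5%) both changed and were separated in this way. Of the changed genes 4175 (81.8%) differed by less than 1.5-fold. At 4-fold or more, 33 genes rose and 3 fell. Counts over gene lists below stand beside 21.2% of all tested genes that rose and 20.6% that fell. TMM factors were used to scale the libraries, and without scaling factors 3690 genes rose and 1501 fell, so that rises made up 71.1% of changed genes against 50.6%. That setting moved the median log2 change of all genes from 0.012 to 0.095. TGFb replicate 3 bore on the count of large falls, which was 68 without it and 92 without replicate 3 of both groups.

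**Figure D1:**
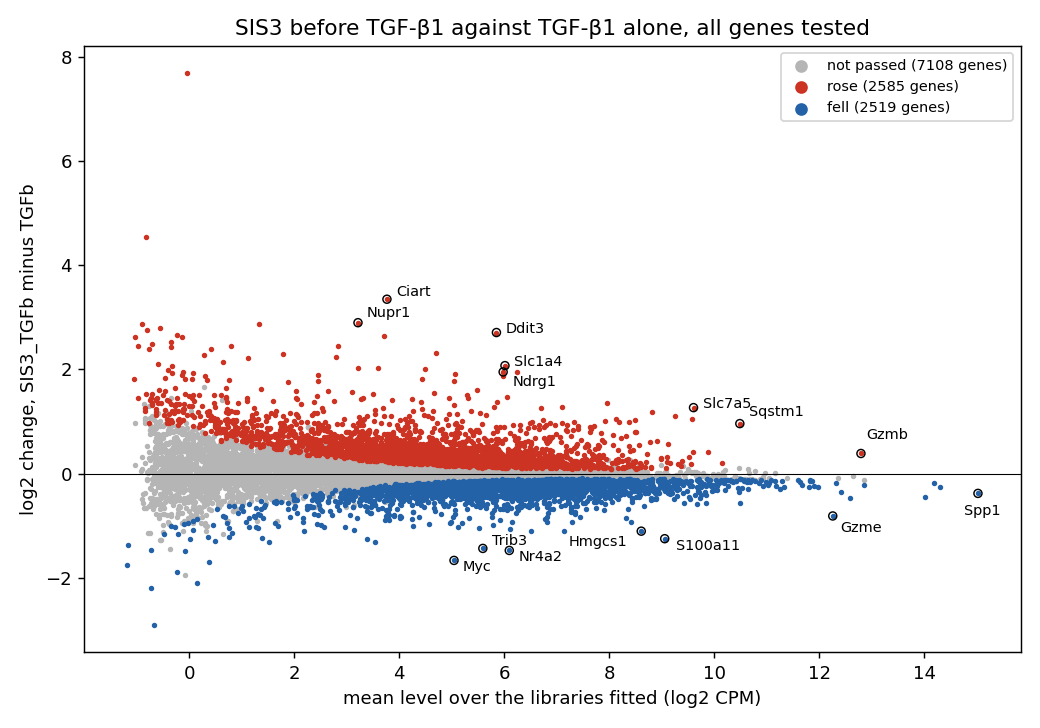
Log2 change (SIS3_TGFb minus TGFb, y axis) against mean level over the 9 libraries fitted (log2 CPM, x axis), 1 point per tested gene. Red points rose (2585 genes), blue points fell (2519) and grey points did not pass (7108), and circles mark genes named in the text. Large rises reach further from 0 than large falls, and the most abundant transcripts lie mostly below 0. The topmost point is Moap1, listed at 0 in all 3 TGFb libraries, whose fitted change is no measure of size and which was chosen after its values were seen.

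Rises outnumbered falls among scarce transcripts, and falls outnumbered rises among abundant ones. Tested genes were divided by mean level over the 9 libraries fitted into 4 classes of equal size. In the lowest class 510 rose and 113 fell, and in the next 797 rose and 344 fell. The class above it had 748 rises and 723 falls, and in the highest class 530 rose and 1339 fell. The median log2 change moved with level from 0.15 in the lowest class to -0.08 in the highest. Genes that rose gained 37300 CPM in all and genes that fell lost 91100. CPM here are counts divided by the library total times its TMM factor, so they are not plain shares of the counts. TMM factors were 0.956 to 0.986 in TGFb and 1.026 to 1.046 in SIS3_TGFb, and counts in the 10 most abundant genes made up 12.8% to 13.6% in TGFb and 11.4% to 11.8% in SIS3_TGFb. The part of these differences in the level pattern was not tested. Gene lists below were set beside all tested genes, not beside genes of like level.

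**Figure D2:**
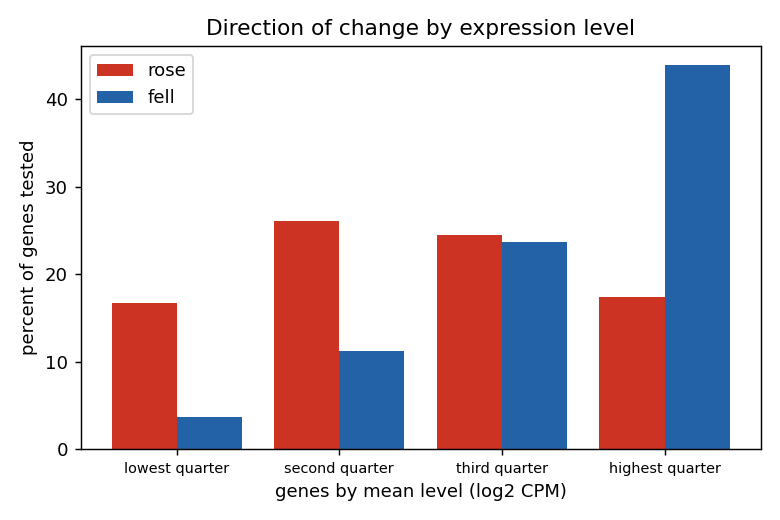
Percent of tested genes that rose (red) and fell (blue), y axis, in 4 equal classes of all 12212 tested genes by mean log2 CPM over the 9 libraries fitted, x axis. Falls outnumber rises in the highest class (1339 against 530), and rises outnumber falls in the lowest (510 against 113).

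The libraries held 15714973 to 16639359 expected counts in TGFb and 16483474 to 16718673 in SIS3_TGFb, with 14191 to 14853 genes above 0. On the first principal component of the 6 libraries (53.7% of the variance) the groups lay apart, and on the second (20.5%) TGFb replicate 3 lay at -23.3 against 14.3 for both other TGFb libraries. Defining NK transcripts were present in all 6 libraries, and the 14 NK identity markers summed to 15800 to 17100 CPM in TGFb and 17100 to 17300 in SIS3_TGFb. Gzmb, which itself rose, made up 38.8% of this sum on average. Of the 14 markers 6 rose, 4 fell and 4 did not pass. B cell markers were near 0 (at most 1.85 CPM in sum), and 7 of 9 neutrophil markers and 6 of 8 stromal markers lay below 1 CPM in all 6 libraries. The neutrophil list still summed to 234 to 248 CPM in TGFb and 220 to 233 in SIS3_TGFb, of which Ctsg made up 98.2%, and the stromal list to 1310 to 1380 and 1040 to 1140 CPM, of which Pecam1 made up 99.9%. Mast cell and basophil markers summed to 575 to 642 CPM in TGFb and 555 to 653 in SIS3_TGFb (1 rose and 2 fell of 9 tested), and dendritic cell markers to 466 to 743 and 528 to 916 CPM (1 rose and 1 fell of 8). T cell markers summed to 1540 to 1680 CPM in TGFb and 1290 to 1370 in SIS3_TGFb, of which Thy1 made up 99.0% on average, while Cd3e stood at 2.52, 1.52 and 0.466 CPM in TGFb and 1.71, 1.34 and 1.04 CPM in SIS3_TGFb. Macrophage markers summed to 1020 to 1580 CPM in TGFb and 1090 to 1950 in SIS3_TGFb, and 12 of the 13 did not pass. Replicate 3 was lowest in TGFb and highest in SIS3_TGFb for the macrophage and the dendritic cell sums alike. The part of these transcripts in the results below was not tested. In bulk RNA, fewer cells of a type and less RNA per cell cannot be told apart.

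Components and targets of TGF-β signalling moved in both directions. The receptor-activated Smad3 transcript (chromosome 9, 63646766 to 63757994) stood at 9.66, 9.21 and 10.4 CPM in TGFb and 5.43, 4.88 and 6.50 CPM in SIS3_TGFb. The groups did not overlap, and the log2 change, given here and below with its standard error, was -0.80 ± 0.148 (adjusted p = 0.000488 by edgeR's quasi-likelihood test with Benjamini-Hochberg adjustment). Smad2, its partner in the same step, rose by 0.19 ± 0.048, and Smad1, which serves bone morphogenetic protein receptors, rose by 0.76 ± 0.075. Furin, the protease that cleaves the TGF-β precursor, stood at 322, 333 and 351 CPM in TGFb and 235, 229 and 226 CPM in SIS3_TGFb and fell (-0.54 ± 0.041). The ligand Tgfb1 (-0.03 ± 0.039) and the receptor Tgfbr2 (-0.08 ± 0.044) did not pass. Of 24 ligands, receptors and SMADs tested, 5 rose, 5 fell and 14 did not pass, with a median log2 change of 0.01 beside 0.012 for all genes. These shares are close to those of all tested genes, of which 21.2% rose and 20.6% fell. Without TGFb replicate 1 the rises numbered 3, and in DESeq2 2.

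Genes listed as feedback regulators and targets of SMAD signalling did not move as a block. Pmepa1, a membrane protein that dampens the pathway, stood at 143, 137 and 133 CPM in TGFb and 121, 127 and 115 CPM in SIS3_TGFb. All SIS3_TGFb values lay below all TGFb values, and the fall was -0.18 ± 0.047 (adjusted p = 0.00564), which did not pass without scaling factors (-0.10, adjusted p = 0.11). Skil, a repressor of SMAD complexes, stood at 190.1, 184 and 181 CPM in TGFb and 201, 198 and 177 CPM in SIS3_TGFb (0.05 ± 0.044) and did not pass, although it did without scaling factors (0.14, adjusted p = 0.019) and without SIS3_TGFb replicate 3 (0.11, adjusted p = 0.031). Klf10, a repressor induced early by TGF-β, rose from 38.7 ± 4.34 to 84.3 ± 10.6 CPM (log2 1.12 ± 0.089), and Nt5e, the adenosine-producing ectoenzyme CD73, rose by 0.97 ± 0.095. Cish, an inhibitor of cytokine receptor signalling, fell from 54.0 ± 3.49 to 27.9 ± 1.74 CPM (-0.96 ± 0.062), and so did the scaffold protein Nedd9 (-0.63 ± 0.051) and the AP-1 subunit Junb (-0.41 ± 0.047). Over 30 feedback regulators and targets, 12 rose, 7 fell and 11 did not pass (median 0.19), beside 21.2% and 20.6% of all tested genes that rose and fell. In this list 15 rose and 4 fell without scaling factors, and the median was 0.06 without replicate 3 of both groups.

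Most genes of the ATF4 branch of the stress response rose, and Trib3, Chac1 and Eif2ak2 fell. Ddit3, the stress transcription factor CHOP (chromosome 10, 127290793 to 127296291), stood at 21.0, 20.3 and 16.8 CPM in TGFb and 131, 133 and 117 CPM in SIS3_TGFb. Every SIS3_TGFb library lay above every TGFb library, and the log2 change was 2.71 ± 0.072 (adjusted p = 9.18e-13). Atf4 itself (chromosome 15, 80255184 to 80257545) stood at 251, 238 and 254 CPM in TGFb and 522, 497 and 491 CPM in SIS3_TGFb, again with no overlap (1.02 ± 0.038). Its dimer partner Cebpg rose from 36.1 ± 0.864 to 94.2 ± 1.23 CPM (1.38 ± 0.046), and the stress-induced chromatin protein Nupr1 from 2.73 ± 0.532 to 20.5 ± 1.79 CPM (2.90 ± 0.133). Ppp1r15a, which returns eIF2α to its unphosphorylated state, rose by 1.17 ± 0.050, and Sesn2, an amino acid sensor that restrains mTORC1, by 0.93 ± 0.064. Eif4ebp1, a repressor of cap-dependent translation, rose by 0.98 ± 0.044.

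Trib3, a pseudokinase that is itself an ATF4 and CHOP target (chromosome 2, 152337425 to 152344060), stood at 97.7, 101 and 97.8 CPM in TGFb and 35.7, 37.7 and 36.2 CPM in SIS3_TGFb. Every SIS3_TGFb library lay below every TGFb library, the opposite of Ddit3, with a log2 change of -1.44 ± 0.046 (adjusted p = 4.63e-12). Chac1, an enzyme that breaks down glutathione, stood at 17.6, 17.0 and 17.9 CPM in TGFb and 7.50, 8.25 and 6.21 CPM in SIS3_TGFb and fell as well (-1.26 ± 0.110). The eIF2α kinase PKR, encoded by Eif2ak2, also fell (-0.60 ± 0.051), and the eIF2α kinase PERK, encoded by Eif2ak3, did not pass (0.10 ± 0.041) except under some settings (0.19, adjusted p = 0.001, without scaling factors). Among the 21 factors and feedback regulators tested, there were 13 rises and 3 falls, and 5 genes did not pass (median 0.63), beside 21.2% and 20.6% of all tested genes that rose and fell.

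**Figure D3:**
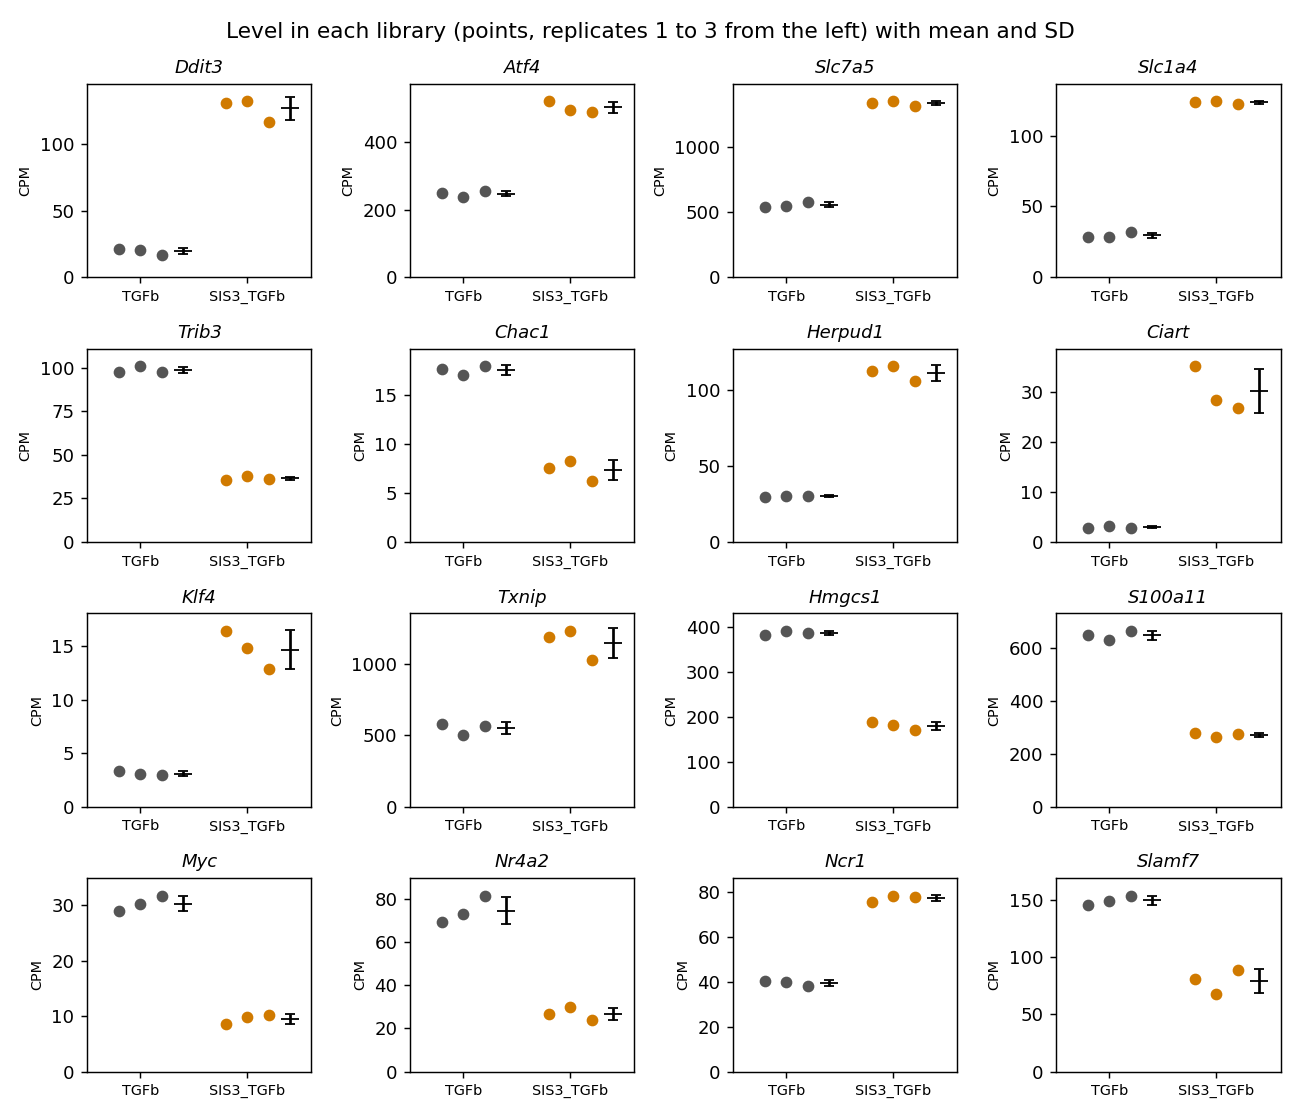
Level of 16 genes in each library (CPM, y axes from 0), with TGFb in grey and SIS3_TGFb in orange, replicates 1 to 3 from left to right, and the mean with its SD in black. The groups do not overlap in any panel. Trib3, Chac1, Hmgcs1, S100a11, Myc, Nr4a2 and Slamf7 are lower in SIS3_TGFb, and the other 9 genes are higher.

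Promoters of these genes were searched for TGATGNAA on either strand, the core of the composite element that ATF4 and C/EBP proteins bind. Other motifs were searched over all lists as well, and of those only a sterol element is given below. The windows below come from RefSeq promoters (GRCm38.p6), hold 60 bases each, run 5′ to 3′ along the gene's strand and carry each match in capitals. They are a selection of the list members that hold the motif, Chac1 among them although it fell. Further members that hold it and are not shown include Atf3, Jdp2, Gars, Tars, Pycr1, Got1 and Slc7a7. Herpud1 comes from the endoplasmic reticulum list. Il20rb, among the large falls, also holds the motif and is not shown.
Nupr1 (chr7:126625547-126625606, minus strand): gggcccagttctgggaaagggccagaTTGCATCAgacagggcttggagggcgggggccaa
Herpud1 (chr8:94386291-94386350, plus strand): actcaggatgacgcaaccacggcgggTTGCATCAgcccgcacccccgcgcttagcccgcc
Vldlr (chr19:27216794-27216853, plus strand): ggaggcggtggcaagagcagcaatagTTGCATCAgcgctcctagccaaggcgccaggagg
Chac1 (chr2:119351023-119351082, plus strand): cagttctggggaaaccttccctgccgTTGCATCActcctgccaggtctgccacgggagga
Aars (chr8:111033704-111033763, plus strand): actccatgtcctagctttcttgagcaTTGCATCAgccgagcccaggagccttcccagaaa
Asns (chr6:7693210-7693269, minus strand): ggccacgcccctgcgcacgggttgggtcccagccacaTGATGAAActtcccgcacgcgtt
Slc7a11 (chr3:50443627-50443686, minus strand): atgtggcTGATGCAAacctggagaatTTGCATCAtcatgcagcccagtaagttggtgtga
The match lies 110 bases before the start in Nupr1, 112 in Herpud1 and Aars, 200 in Vldlr, 193 in Chac1, 23 in Asns and 66 and 47 for the 2 matches of Slc7a11. The motif was found in 6 of 25 promoters of ATF4-pathway factors (24.0%), 3 of 18 of amino acid synthesis enzymes (16.7%), 4 of 23 of amino acid transporters (17.4%) and 5 of 13 of cytosolic aminoacyl-tRNA synthetases (38.5%). It was found in 0 of 15 promoters of mitochondrial aminoacyl-tRNA synthetases, in 2.35% of 12474 promoters of all tested genes and in 3.97% of all 32851 promoters. Among genes that rose the share was 3.18% and among genes that fell 1.73%. Of the promoters of the 20 largest rises 3 of 21 held it (14.3%), and of those of the 20 largest falls 3 of 18 (16.7%). In the endoplasmic reticulum list 1 of 26 promoters held it (3.85%). A match is a description of these 300-base promoters and shows no binding.

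Amino acid transporters mostly rose. Slc7a5, the light chain of the transporter of large neutral amino acids (chromosome 8, 121881146 to 121907686), stood at 541, 546 and 576 CPM in TGFb and 1337, 1349.6 and 1316 CPM in SIS3_TGFb. Its heavy chain partner Slc3a2 stood at 333, 336 and 335 CPM in TGFb and 778, 758 and 748 CPM in SIS3_TGFb. Neither gene overlapped between the groups, and the log2 changes were 1.27 ± 0.037 and 1.19 ± 0.037. Slc1a4, a carrier of alanine, serine and cysteine, rose from 29.4 ± 1.88 to 124 ± 1.01 CPM (2.07 ± 0.049), the glycine transporter Slc6a9 from 22.1 ± 1.48 to 55.0 ± 1.66 CPM (1.32 ± 0.065) and the arginine and lysine transporter Slc7a1 from 157 ± 5.00 to 317 ± 20.3 CPM (1.02 ± 0.052). The cystine importer Slc7a11 rose by 0.83 ± 0.141, with SIS3_TGFb replicate 3 at 83.7 CPM above 57.9 and 56.6 for the others, and by 0.47 without replicate 3 of both groups. The lysosomal carriers Slc36a1 (-0.03 ± 0.100) and Slc15a4 (-0.17 ± 0.077) did not pass. In all, 13 rose, 1 fell and 4 did not pass of 18 transporters (median 0.34).

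No tested enzyme of amino acid synthesis fell. Gpt2, mitochondrial alanine aminotransferase (chromosome 8, 85492576 to 85528902), stood at 10.3, 9.57 and 10.8 CPM in TGFb and 40.4, 43.2 and 40.1 CPM in SIS3_TGFb (2.01 ± 0.072). Bcat1, the cytosolic aminotransferase of branched-chain amino acids, stood at 15.8, 16.9 and 15.4 CPM in TGFb and 52.9, 52.9 and 58.8 CPM in SIS3_TGFb (1.77 ± 0.065). The groups of both genes were apart in all libraries. Asparagine synthetase, Asns, rose from 153 ± 1.82 to 284 ± 3.69 CPM (0.89 ± 0.038), and the mitochondrial one-carbon enzymes Mthfd2 and Shmt2 rose by 0.84 ± 0.040 and 0.65 ± 0.034. The cytosolic one-carbon enzyme Mthfd1 (-0.13 ± 0.053) and the mitochondrial aminotransferase Bcat2 (-0.08 ± 0.046) did not pass, although Mthfd1 passed with DESeq2 size factors (adjusted p = 0.044) and without SIS3_TGFb replicate 2 (adjusted p = 0.038). Of 21 enzymes, 15 rose, 0 fell and 6 did not pass (median 0.65).

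Aminoacyl-tRNA synthetases, which load each tRNA with its amino acid, were counted by compartment. Of 20 cytosolic enzymes 16 rose, 2 fell and 2 did not pass (median 0.59), while of 17 mitochondrial ones 6 rose, 0 fell and 11 did not pass (median 0.06). The difference between the lists was not tested. The cytosolic alanine enzyme Aars stood at 238, 241 and 262 CPM in TGFb and 491, 500.4 and 489 CPM in SIS3_TGFb, and the cysteine enzyme Cars rose from 65.3 ± 1.83 to 131 ± 4.02 CPM. The groups of both genes were apart, with log2 changes of 1.00 ± 0.038 and 1.00 ± 0.047. The glycine enzyme Gars (0.80 ± 0.036) and the tryptophan enzyme Wars (0.92 ± 0.035) rose by nearly as much. Qars, the glutamine enzyme, fell by a log2 change of -0.29 ± 0.043, and Kars, the lysine enzyme, was at -0.12 ± 0.039, which did not pass when TGFb replicate 3 was left out (-0.11, adjusted p = 0.051), SIS3_TGFb replicate 1 (-0.12, 0.051) or SIS3_TGFb replicate 3 (-0.11, 0.061), nor in unscaled libraries (-0.04, 0.41). The lists of ATF4-pathway factors, synthesis enzymes, transporters and cytosolic aminoacyl-tRNA synthetases held 80 tested genes together, of which 57 rose, 6 fell and 17 did not pass (median 0.55), beside 21.2% of all tested genes that rose. Their 83 members in the table summed to 7627, 7680 and 7854 CPM in TGFb and 12429, 12408 and 12261 CPM in SIS3_TGFb.

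**Figure D4:**
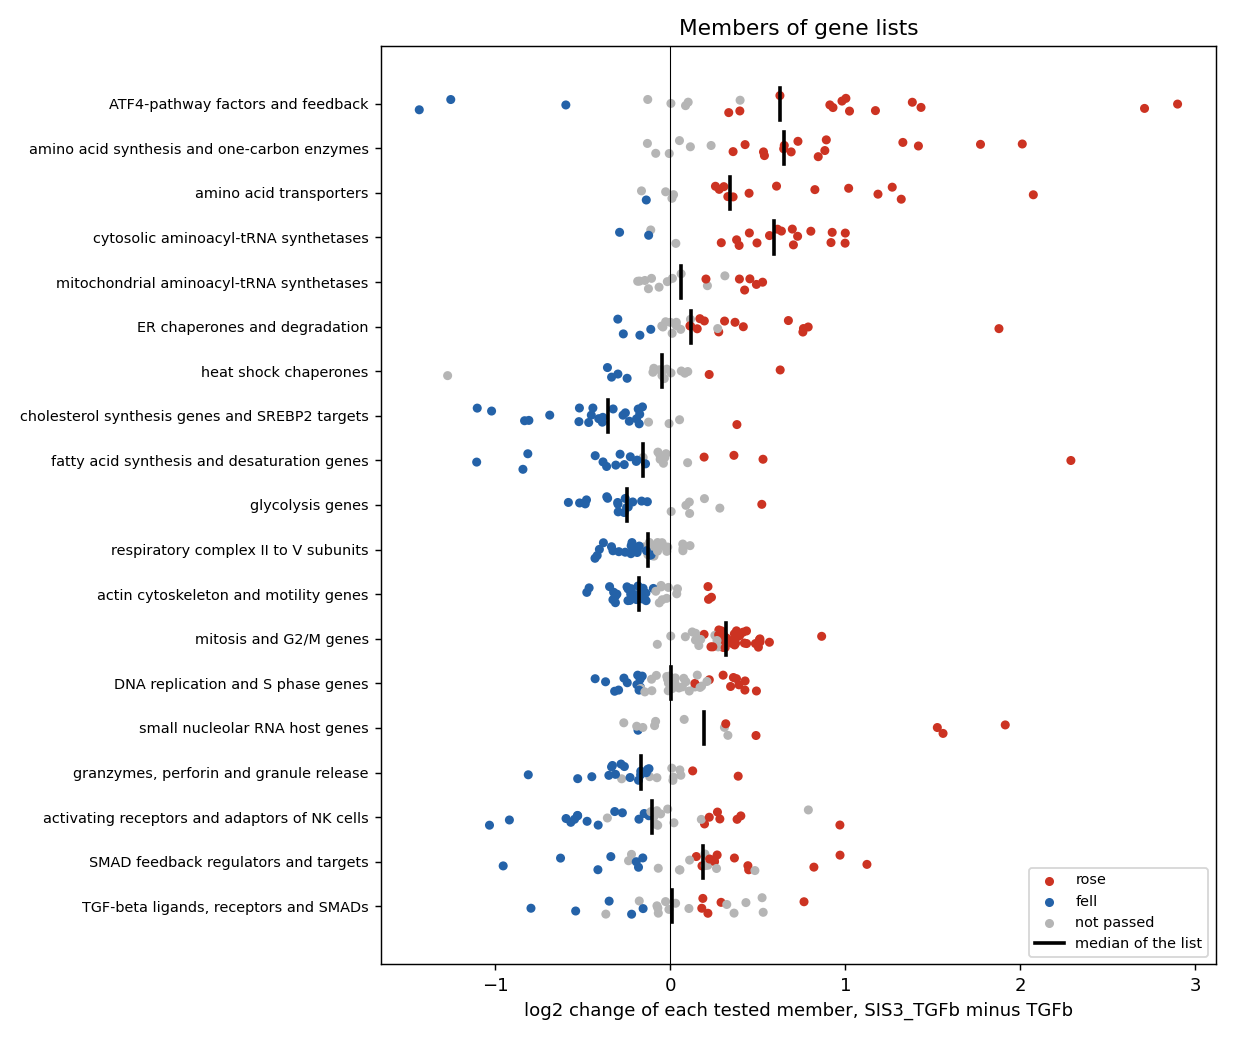
Log2 change (SIS3_TGFb minus TGFb, x axis) of every tested member of 19 gene lists (rows), red for members that rose, blue for members that fell and grey for those that did not pass, with a black bar at each median. Medians of ATF4-pathway factors, amino acid synthesis enzymes, amino acid transporters and cytosolic aminoacyl-tRNA synthetases lie to the right of 0 (0.34 to 0.65). The median of mitochondrial aminoacyl-tRNA synthetases is 0.06, and that of the cholesterol list lies to the left (-0.36).

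Endoplasmic reticulum genes took part unevenly. Herpud1, a factor of protein degradation at this compartment (chromosome 8, 94386429 to 94395371), stood at 29.9, 30.6 and 30.6 CPM in TGFb and 113, 116 and 106 CPM in SIS3_TGFb, a log2 change of 1.88 ± 0.048 with no overlap. Xbp1, a transcription factor activated by splicing in this response, rose from 101 ± 3.85 to 171 ± 6.41 CPM (0.76 ± 0.040), and its sensor Ern1 by 0.67 ± 0.063. The chaperone Hspa5 rose by 0.42 ± 0.038 and the co-chaperone Dnajb9 by 0.79 ± 0.075. The calcium-binding chaperone Calr (-0.27 ± 0.036) and Sdf2l1 (-0.30 ± 0.051) fell, and the chaperone Hsp90b1 (0.01 ± 0.037) did not pass. Counts over 28 genes were 14 rose, 4 fell and 10 did not pass (median 0.12), beside 21.2% and 20.6% of all tested genes that rose and fell.

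Heat shock chaperones outside that compartment gave a mixed picture. The mitochondrial chaperone Hspa9 rose from 390.0 ± 7.98 to 602 ± 14.0 CPM (0.63 ± 0.034), while the cytosolic Hspa8 fell from 2563 ± 44.3 to 2081 ± 49.1 CPM (-0.30 ± 0.033), Hsp90ab1 by -0.25 ± 0.032 and the stress-inducible co-chaperone Dnajb1 by -0.36 ± 0.054. Of 17 tested, there were 2 rises and 4 falls, and 11 genes did not pass (median -0.05), while 3 rose and 4 fell without scaling factors (median 0.04). Among genes governed by NRF2, a sensor of oxidants, Osgin1 rose (0.69 ± 0.058). The pentose phosphate enzymes G6pdx (-0.40 ± 0.047) and Pgd (-0.39 ± 0.070) and the NADPH-making malic enzyme Me1 (-0.81 ± 0.102) fell. Of 21 tested in this list, which also holds Nfe2l2 for NRF2 itself and Keap1, 3 rose, 8 fell and 10 did not pass. Without scaling factors 3 rose and 5 fell. For both lists the shares over all tested genes were 21.2% that rose and 20.6% that fell.

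Transcripts of zinc handling moved in both directions. The zinc-binding metallothionein Mt2 stood at 449, 430.5 and 442 CPM in TGFb and 972, 1027 and 854 CPM in SIS3_TGFb and Mt1 at 345, 361 and 412 CPM in TGFb and 581, 600.3 and 527 CPM in SIS3_TGFb. Both rose without overlap (1.11 ± 0.067 and 0.61 ± 0.075), as did the zinc exporter Slc30a1 (1.44 ± 0.147). The zinc importer Slc39a10 stood at 13.4, 14.8 and 10.8 CPM in TGFb and 5.84, 4.59 and 5.34 CPM in SIS3_TGFb and fell (-1.31 ± 0.140). The importer Slc39a1 fell by a log2 change of -0.32 ± 0.060, and Slc39a7, which releases zinc from the endoplasmic reticulum, rose by 0.31 ± 0.039. Of 20 in the list 7 rose, 7 fell and 6 did not pass (median -0.07), while 7 rose and 3 fell without scaling factors (median 0.02). Beside this and the iron list, 21.2% of all tested genes rose and 20.6% fell. In the iron list 0 of 17 rose, 8 fell and 9 did not pass (1 rose and 5 fell without scaling factors), among them the transferrin receptor Tfrc (-0.39 ± 0.079), the ferritin receptor Ncoa4 (-0.40 ± 0.036) and the ferritin light chain Ftl1 (-0.23 ± 0.044) as falls.

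Cholesterol synthesis genes, which SREBP2 switches on when sterols are scarce, were lower after SIS3. Hmgcs1, which makes HMG-CoA (chromosome 13, 119690351 to 119708260), stood at 382, 392 and 387 CPM in TGFb and 189, 181 and 170.1 CPM in SIS3_TGFb. The log2 change was -1.10 ± 0.042 (adjusted p = 2.57e-11), with the groups apart. The isomerase Idi1 fell from 119 ± 4.36 to 66.8 ± 5.87 CPM (-0.83 ± 0.057) and the sterol carrier Stard4 from 63.9 ± 3.26 to 39.6 ± 0.851 CPM (-0.69 ± 0.054). Tmem97, also an SREBP2 target, rose (0.38 ± 0.065). Over the 26 genes 1 rose, 22 fell and 3 did not pass (median -0.36), beside 20.6% of all tested genes that fell, and 17 fell without scaling factors as well as without replicate 3 of both groups. Of the 21 promoters of this list 1 held TCACNCCAC, a form of the sterol response element found in 1.08% of promoters of tested genes, and it is shown as the promoter of the member that fell most.
Hmgcs1 (chr13:119690188-119690247, plus strand): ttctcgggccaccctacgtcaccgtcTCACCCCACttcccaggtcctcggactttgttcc
The match lies 137 bases before the start of the gene on the strand of the gene.

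Fatty acid genes followed in part. Fasn, fatty acid synthase, stood at 138, 156 and 165 CPM in TGFb and 72.8, 73.5 and 66.8 CPM in SIS3_TGFb and fell (-1.11 ± 0.060). Its regulator Srebf1 (-0.39 ± 0.054), the citrate lyase Acly (-0.29 ± 0.041) and the desaturase Scd2 (-0.23 ± 0.036) fell by less. Elovl7, an elongase of long-chain fatty acids, rose from 1.46 ± 0.331 to 7.20 ± 1.06 CPM (2.29 ± 0.193), and Mid1ip1, an activator of acetyl-CoA carboxylase, rose by 0.53 ± 0.054. Of 25 genes 4 rose, 13 fell and 8 did not pass (median -0.16), beside 21.2% and 20.6% of all tested genes that rose and fell. Soat2, which esterifies cholesterol and lies outside both lists, rose from 11.7 ± 0.295 to 41.4 ± 1.52 CPM (1.82 ± 0.063). The list of LXR targets and lipid exporters also holds the LXR genes Nr1h2 and Nr1h3, and of its 16 genes 2 rose, 6 fell and 8 did not pass. Among them were a rise of the drug exporter Abcb1a (1.14 ± 0.122) and a fall of the lipid exporter Abca7 (-0.46 ± 0.043).

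Glycolysis genes mostly fell by modest amounts. The hexokinase Hk1 stood at 327, 338 and 356 CPM in TGFb and 249.7, 242 and 236 CPM in SIS3_TGFb (-0.49 ± 0.039), and the kinase Pfkl, the aldolase Aldoc and the pyruvate kinase Pkm changed by -0.52 ± 0.071, -0.58 ± 0.065 and -0.36 ± 0.045. All 3 SIS3_TGFb libraries lay below all TGFb libraries for each of these genes. Pfkfb3, which makes an activator of phosphofructokinase, rose from 42.3 ± 1.14 to 60.8 ± 1.24 CPM (0.52 ± 0.047). Of 23 glycolysis genes 1 rose, 16 fell and 6 did not pass (median -0.25), beside 20.6% of all tested genes that fell, while 3 rose and 13 fell without scaling factors. Level was not matched, and in the highest of the 4 level classes 1339 of 3053 genes fell (median -0.08). The rises of glycolysis genes numbered 3 without TGFb replicate 3. Hif1a, the transcription factor of the low-oxygen response, stood at 197, 189.9 and 178 CPM in TGFb and 392, 402 and 380.5 CPM in SIS3_TGFb and rose (1.06 ± 0.040), as did its stress-responsive target Ndrg1, from 26.0 ± 1.31 to 101 ± 8.33 CPM (1.95 ± 0.062). Other targets fell, among them Ankrd37 (-1.03 ± 0.203), the mitophagy receptor Bnip3 (-0.62 ± 0.072) and the oxygen sensor Egln3 (-0.65 ± 0.104). Of 19 HIF1 genes outside glycolysis, Hif1a itself counted among the rises, 5 rose, 6 fell and 8 did not pass (7 rose and 4 fell without scaling factors). Beside these, 21.2% of all tested genes rose and 20.6% fell.

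Calls for respiratory chain subunits depended on the scaling. Of 39 subunits of complexes II to V 0 rose, 20 fell and 19 did not pass (median -0.13), such as Uqcrh (-0.43 ± 0.053) and Cox6b1 (-0.42 ± 0.046). Of 37 complex I subunits 1 rose, 6 fell and 30 did not pass (median -0.03). For complexes II to V 2 rose and 13 fell without scaling factors, and for complex I 8 rose and 1 fell without scaling factors, so that the lean of complex I turned over. Without TGFb replicate 3, SIS3_TGFb replicate 1 or SIS3_TGFb replicate 2 the falls of complex I numbered 2, 1 and 2. The difference between the lists was not tested. Of 22 citric acid cycle enzymes 3 rose, 11 fell and 8 did not pass, with a rise of Dld (0.60 ± 0.047), a subunit shared by several dehydrogenase complexes, and a fall of Ogdh (-0.37 ± 0.035). Of these 4 rose and 6 fell without scaling factors. Over all tested genes, 21.2% rose and 20.6% fell.

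The calls for ribosomal protein genes turned on the scaling. The transcripts of 78 ribosomal proteins summed to 92038, 91545 and 98223 CPM in TGFb and to 86920, 87638 and 86199 CPM in SIS3_TGFb, values that carry the TMM factors. As plain shares of all counts they made up 9.07%, 9.03% and 9.39% in TGFb and 8.92%, 9.03% and 9.02% in SIS3_TGFb, so that the groups overlapped. No ribosomal protein gene rose, 20 of 46 of the large subunit and 13 of 32 of the small subunit fell, and the medians were -0.11 and -0.10. These counts hung on scaling and on single libraries, as 3 and 1 fell without scaling factors, 13 and 4 without TGFb replicate 3, and 4, 5 and 8 of the small subunit without SIS3_TGFb replicate 1, 2 or 3. Elongation factors Eef1a1 (-0.17 ± 0.037) and Eef2 (-0.21 ± 0.041) and the scaffold Eif4g1 (-0.48 ± 0.035) fell, while Eif5 (0.56 ± 0.036) and the eIF2 subunit Eif2s2 (0.55 ± 0.041) rose. Of 34 initiation and elongation factors there were 6 rises and 15 falls, and 13 genes did not pass, while 9 rose and 9 fell without scaling factors and the median of -0.08 became 0.01. Of 34 nucleolar ribosome biogenesis genes 5 rose, 15 fell and 14 did not pass, while 12 rose and 8 fell without scaling factors, which turns the balance. The rises of that list numbered 3 without TGFb replicate 1 and 2 without SIS3_TGFb replicate 1 or 2. Beside these lists, 21.2% of all tested genes rose and 20.6% fell.

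Myc, a driver of ribosome synthesis and growth (chromosome 15, 61985341 to 61990361), stood at 29.0, 30.3 and 31.7 CPM in TGFb and 8.56, 9.93 and 10.2 CPM in SIS3_TGFb. No library overlapped, and the fall was -1.67 ± 0.072 (adjusted p = 1.1e-10). Its relative Mycn fell too (-1.03 ± 0.158), and Mxi1, an antagonist that pairs with the same partner, rose (0.58 ± 0.061). The partner Max did not pass (-0.08 ± 0.035). In this network 4 rose, 5 fell and 3 did not pass of 12, while 5 rose and 3 fell without scaling factors.

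Several host genes of small nucleolar RNAs rose steeply. These transcripts carry snoRNAs in their introns, and many are degraded during translation. Snhg5 stood at 17.8, 17.6 and 15.8 CPM in TGFb and 64.9, 67.8 and 60.6 CPM in SIS3_TGFb, and Snhg12 at 5.78, 6.71 and 6.85 CPM in TGFb and 17.0, 18.6 and 20.0 CPM in SIS3_TGFb. Neither overlapped between groups, with log2 changes of 1.91 ± 0.063 and 1.53 ± 0.102, and Snhg1 rose by 1.56 ± 0.077. Others barely differed, such as Snhg3 (-0.08 ± 0.098), and among 14 such genes 5 rose, 1 fell and 8 did not pass (median 0.19).

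Cell division genes rose by small amounts while replication genes were mixed. Of 47 mitosis and G2/M genes 35 rose, 0 fell and 12 did not pass (median 0.32), beside 21.2% of all tested genes that rose. The spindle motor Kif11 (0.51 ± 0.072), the cyclin Ccnf (0.51 ± 0.095), the centromere histone Cenpa (0.44 ± 0.059) and the topoisomerase Top2a (0.33 ± 0.062) were among them. The count was 23 without SIS3_TGFb replicate 3 and 17 without replicate 3 of both groups. Of 46 replication and S phase genes 10 rose, 12 fell and 24 did not pass (median 0.00), beside 21.2% and 20.6% of all tested genes that rose and fell, with the sliding clamp Pcna lower (-0.43 ± 0.038) and the origin protein Orc2 higher (0.49 ± 0.049). In that list 15 rose and 4 fell without scaling factors, and the rises numbered 6 without TGFb replicate 3 and 5 without TGFb replicate 1 or SIS3_TGFb replicate 3. The cell cycle inhibitor Cdkn1a rose from 299 ± 3.46 to 407 ± 9.89 CPM (0.44 ± 0.035), as did Cdkn1b (0.38 ± 0.046). Of 18 G1 cyclins, kinases and inhibitors 5 rose, 4 fell and 9 did not pass, beside 21.2% and 20.6% of all tested genes that rose and fell (7 rose and 2 fell without scaling factors).

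Linker histone transcripts rose. H1f0, the linker histone of resting cells, stood at 42.3, 45.2 and 42.9 CPM in TGFb and 116, 124 and 121 CPM in SIS3_TGFb (1.47 ± 0.046). H1f2 rose from 87.9 ± 8.41 to 172 ± 5.75 CPM (0.97 ± 0.053), and H1f3 was at 0.51 and 2.69 CPM on average (2.40 ± 0.309). The replacement histone gene H3f3b rose by 0.80 ± 0.042, while H3f3a, which encodes the same protein, was at 0.00 ± 0.039 and did not pass. Among 17 histone genes 9 rose, 1 fell and 7 did not pass (median 0.24). Most histone transcripts made in S phase lack the poly(A) tail on which these libraries were selected, so their counts reflect the part that carries one.

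**Figure D5:**
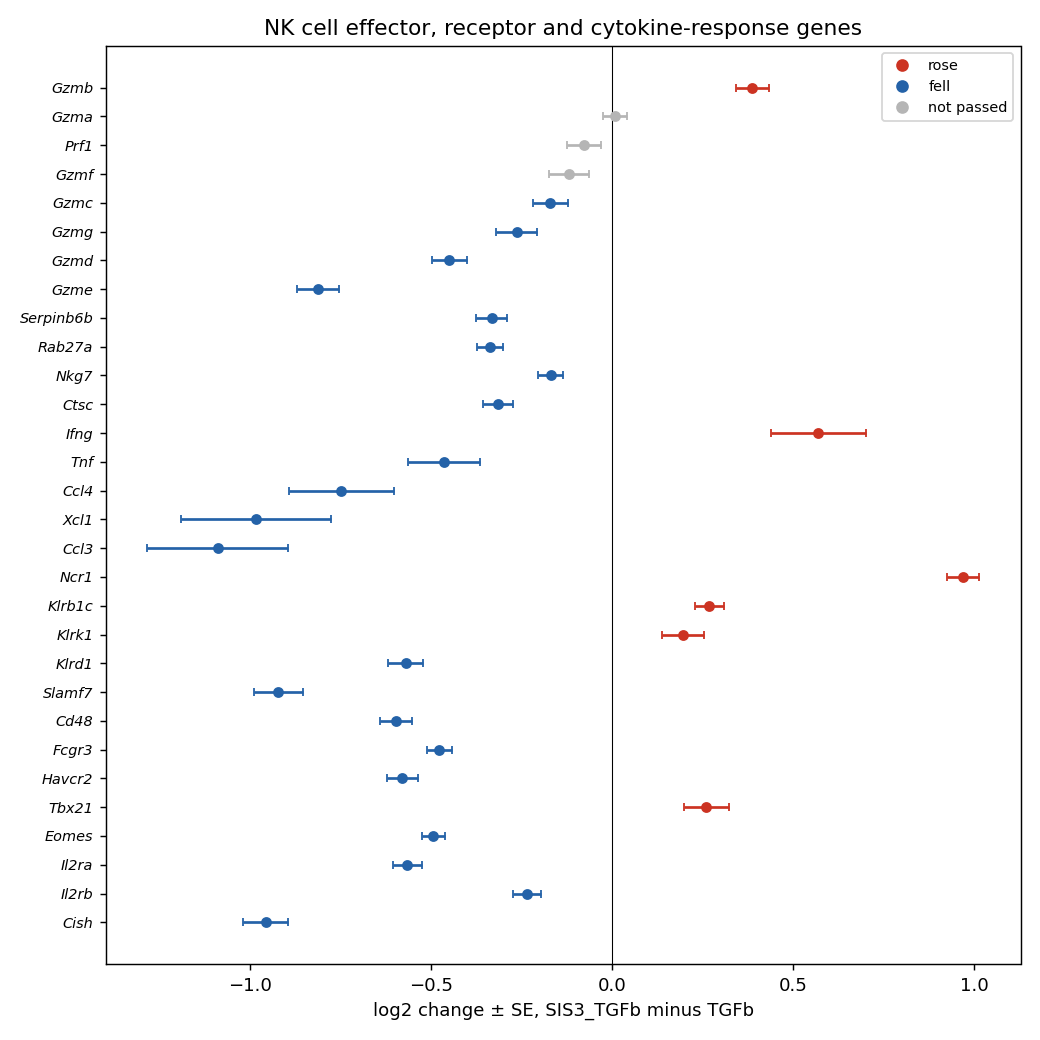
Log2 change with its SE (SIS3_TGFb minus TGFb, x axis) of 30 genes of NK cell killing, secretion, recognition and cytokine response (y axis), red for rises, blue for falls and grey for genes that did not pass. Gzmb, Ifng, Ncr1, Klrb1c, Klrk1 and Tbx21 lie to the right of 0, and the grey points are Gzma, Prf1 and Gzmf.

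Genes of NK cell killing did not move as a block. Gzmb, the granule protease granzyme B (chromosome 14, 56258836 to 56262334), stood at 5515, 5374 and 5969.7 CPM in TGFb and 7101, 7573 and 7372 CPM in SIS3_TGFb. It rose without overlap (0.39 ± 0.046). Perforin, Prf1, stood at 4594, 4716 and 5308 CPM in TGFb and 4726, 4508 and 4622 CPM in SIS3_TGFb with overlapping groups (-0.08 ± 0.048), and Gzma was at 0.01 ± 0.033, which passed without scaling factors (0.09, adjusted p = 0.013). The granzymes of the cluster beside Gzmb were lower, with Gzme at 4562, 4896 and 5522 CPM in TGFb and 2924, 2766 and 2839 CPM in SIS3_TGFb (-0.81 ± 0.058) and Gzmd from 17631 ± 1229 to 12913 ± 468 CPM (-0.45 ± 0.049). Gzmc to Gzmg are related genes of similar sequence, so the split of reads among them may be uncertain. Gzmf (-0.12 ± 0.054) passed, among the settings tried, only in DESeq2 (adjusted p = 0.03) and without a filter on low counts (0.043), and Gzmc (-0.17 ± 0.048) did not pass without scaling factors (-0.09, adjusted p = 0.081) or without replicate 3 of both groups (-0.10, 0.066) and was at -0.11 without TGFb replicate 3. Their sum was 53503, 54983 and 61186 CPM in TGFb and 46559, 45293 and 43045 CPM in SIS3_TGFb. As plain shares of all counts it was 5.27%, 5.42% and 5.85% in TGFb and 4.78%, 4.67% and 4.50% in SIS3_TGFb. The granule-docking Rab27a (-0.34 ± 0.035) and the granule membrane protein Nkg7 (-0.17 ± 0.034) fell. Of 26 genes of this kind 2 rose, 16 fell and 8 did not pass (median -0.17), while 4 rose and 11 fell without scaling factors. Among all tested genes 21.2% rose and 20.6% fell.

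Receptors showed opposite movements. Ncr1, which encodes NKp46 (chromosome 7, 4337715 to 4345184), stood at 40.5, 39.8 and 38.3 CPM in TGFb and 75.7, 78.4 and 77.9 CPM in SIS3_TGFb. Every SIS3_TGFb library lay above every TGFb library (0.97 ± 0.044), and so did the lectin-like receptor Klrb1c (0.27 ± 0.040). Slamf7, a receptor of the SLAM family (chromosome 1, 171632403 to 171653037), stood at 146, 149 and 154 CPM in TGFb and 80.7, 67.7 and 88.8 CPM in SIS3_TGFb and fell without overlap (-0.92 ± 0.069). The SLAM family ligand Cd48 (-0.60 ± 0.044), the lectin-like subunit Klrd1 (-0.57 ± 0.048), the costimulator Icos (-0.55 ± 0.042) and the Fc receptor Fcgr3 (-0.48 ± 0.035) fell as well. Klrk1, which encodes NKG2D, rose by 0.20 ± 0.058, which did not pass when TGFb replicate 3 (0.15, adjusted p = 0.058) or SIS3_TGFb replicate 1 (0.15, 0.08) was left out. Of 32 activating receptors and adaptors 7 rose, 14 fell and 11 did not pass (median -0.10), beside 21.2% and 20.6% of all tested genes that rose and fell. Of 19 inhibitory receptors 3 rose, 5 fell and 11 did not pass, with Havcr2, which encodes TIM-3, falling from 804 ± 47.8 to 539 ± 13.3 CPM (-0.58 ± 0.043) and Lair1 by a log2 change of -0.49 ± 0.054.

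Among secreted factors the chemokines Ccl3, Xcl1 and Ccl4 fell and interferon γ rose. The chemokine Ccl3 stood at 8.61, 10.3 and 6.06 CPM in TGFb and 3.42, 3.48 and 4.87 CPM in SIS3_TGFb and Xcl1 at 8.86, 7.93 and 5.52 CPM in TGFb and 2.77, 4.82 and 3.71 CPM in SIS3_TGFb. Their groups did not overlap (-1.09 ± 0.194 and -0.98 ± 0.208), nor did those of Ccl4 (-0.75 ± 0.144) and Tnf (-0.46 ± 0.100), which fell. Interferon γ, Ifng, stood at 5.05, 5.49 and 4.26 CPM in TGFb and 7.79, 7.38 and 6.85 CPM in SIS3_TGFb and rose (0.57 ± 0.131, adjusted p = 0.00256). Of 17 secreted factors 2 rose, 5 fell and 10 did not pass (median -0.12), beside 21.2% and 20.6% of all tested genes that rose and fell. Spp1, the secreted phosphoprotein osteopontin, stood at 33609, 33541 and 38181 CPM in TGFb and 27552, 27394 and 26051 CPM in SIS3_TGFb, the largest loss in CPM of any gene (-0.38 ± 0.049).

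The lineage factors Eomes and Tbx21 moved apart. Eomes stood at 516, 519.6 and 515 CPM in TGFb and 366, 361 and 375 CPM in SIS3_TGFb and Tbx21 at 23.8, 22.0 and 24.0 CPM in TGFb and 27.6, 27.9 and 27.8 CPM in SIS3_TGFb. Neither overlapped, with log2 changes of -0.49 ± 0.033 and 0.26 ± 0.062. Nr4a2, a nuclear receptor induced by activation, stood at 69.1, 72.7 and 81.3 CPM in TGFb and 26.4, 29.7 and 24.1 CPM in SIS3_TGFb and fell (-1.47 ± 0.089). Ets1, a factor for NK development, fell (-0.47 ± 0.038), while Ikzf2 (0.58 ± 0.129) and the repressor Bach2 (0.58 ± 0.079) rose. Of 40 transcription factors there were 11 rises and 10 falls, and 19 genes did not pass (median 0.06), beside 21.2% and 20.6% of all tested genes.

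Response genes of IL-2 and IL-15, the cytokines in the medium, moved in both directions. Il2ra, the high-affinity subunit CD25, stood at 849.8, 876 and 871 CPM in TGFb and 603, 596 and 557 CPM in SIS3_TGFb (-0.56 ± 0.041). The shared receptor subunit Il2rb (-0.23 ± 0.039), the kinase Jak3 (-0.42 ± 0.053) and the phosphatase Ptpn6 (-0.63 ± 0.050) fell, and the adaptor Gab2 (0.54 ± 0.062) and the mTORC1 activator Rheb (0.48 ± 0.068) rose. Of 34 genes 6 rose, 14 fell and 14 did not pass (median -0.08), beside 21.2% and 20.6% of all tested genes that rose and fell, while 8 rose and 12 fell without scaling factors (median 0.00).

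Early response genes were divided as well. Klf4, a transcription factor that favours quiescence (chromosome 4, 55527137 to 55532475), stood at 3.32, 3.05 and 2.93 CPM in TGFb and 16.4, 14.8 and 12.8 CPM in SIS3_TGFb and rose (2.24 ± 0.135). Spry2, an inhibitor of growth factor signalling, stood at 71.4, 71.9 and 69.7 CPM in TGFb and 32.2, 34.3 and 34.8 CPM in SIS3_TGFb and fell (-1.07 ± 0.055). Both pairs of groups were apart. Of 32 immediate early genes 8 rose, 15 fell and 9 did not pass (median -0.13), beside 21.2% and 20.6% of all tested genes that rose and fell. In the NF-κB list 9 rose, 3 fell and 11 did not pass of 23, with rises of the deubiquitinase Tnfaip3 (0.65 ± 0.058) and the subunit Relb (0.61 ± 0.054), while 17 rose and 2 fell without scaling factors. Interferon response genes mostly did not pass, as 5 rose, 3 fell and 24 did not pass of 32, and Mx1 alone among the rises exceeded a log2 change of 1 (1.14 ± 0.062). Without TGFb replicate 3 the rises of that list numbered 3, and without replicate 3 of both groups 3 rose and 9 fell, the reverse of the balance in all libraries. With all libraries the interferon shares were 15.6% and 9.38%, below the 21.2% and 20.6% of all tested genes.

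Several genes known as FOXO or MondoA targets rose. Txnip, an α-arrestin that limits glucose uptake (chromosome 3, 96557957 to 96561857), stood at 579.8, 506 and 569 CPM in TGFb and 1185, 1230.2 and 1029 CPM in SIS3_TGFb (1.06 ± 0.062). Arrdc3, a relative that sorts receptors for degradation, stood at 11.3, 12.6 and 9.58 CPM in TGFb and 58.3, 58.4 and 51.1 CPM in SIS3_TGFb (2.32 ± 0.086). Tsc22d3, which encodes GILZ, rose from 36.5 ± 1.49 to 142 ± 5.19 CPM (1.96 ± 0.054), and the insulin receptor substrate Irs2 from 6.09 ± 0.298 to 16.6 ± 1.93 CPM (1.45 ± 0.120). Cited2, a coactivator-binding protein, fell (-0.78 ± 0.060). Of 20 α-arrestins and FOXO targets 11 rose, 3 fell and 6 did not pass (median 0.28), while 12 rose and 1 fell without scaling factors and the falls numbered 1 without TGFb replicate 2 or SIS3_TGFb replicate 3. Of 6 MondoA targets, 4 rose and 2 did not pass.

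Ciart, a repressor of the circadian clock (chromosome 3, 95878500 to 95882257), gave the largest rise among the genes ranked. Ranked were called genes whose mean over the 9 libraries fitted reached 1 log2 CPM and whose groups did not overlap. Numbered gene models, Rik and LOC symbols and pseudogenes were left out. Ciart stood at 2.77, 3.23 and 2.86 CPM in TGFb and 35.2, 28.5 and 26.9 CPM in SIS3_TGFb, a log2 change of 3.35 ± 0.138 (adjusted p = 6.44e-11). The lowest SIS3_TGFb library was far above the highest TGFb library. Other clock genes moved little, with Nr1d2 at 0.54 ± 0.156 and Cry1 at 0.39 ± 0.089 as rises, and 4 rose, 1 fell and 14 did not pass of 19 (7 rose and 1 fell without scaling factors). Over all tested genes, 21.2% rose and 20.6% fell. The other large rises held genes of varied roles, including the heparan sulfate enzyme Extl1 (2.65 ± 0.108), the ephrin Efnb2 (2.44 ± 0.188), the hormone Stc2 (2.03 ± 0.118), the semaphorin Sema4f (1.90 ± 0.148) and Csprs (2.88 ± 0.288), which belongs to a repeated gene family so that its reads are uncertain.

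Among the large falls the calcium-binding protein S100a11 (chromosome 3, 93520496 to 93526288) stood at 649.9, 632 and 666 CPM in TGFb and 279, 265 and 275 CPM in SIS3_TGFb. Its groups were far apart (-1.25 ± 0.040, adjusted p = 4.44e-12). Thrombospondin, Thbs1, stood at 55.8, 72.5 and 88.6 CPM in TGFb and 34.2, 34.9 and 35.7 CPM in SIS3_TGFb, where the TGFb libraries spread widely (-1.04 ± 0.178). The splicing factor Esrp2 (-1.23 ± 0.241), Klhl30 (-1.11 ± 0.057), the transcription factor Zfp143 (-1.01 ± 0.097) and the receptor subunit Il20rb (-1.03 ± 0.213) also fell.

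Cytoskeletal genes fell broadly. Of 36 actin and motility genes 3 rose, 24 fell and 9 did not pass (median -0.18, beside 20.6% of all tested genes that fell, while 5 rose and 19 fell without scaling factors). Level was not matched, and in the highest of the 4 level classes 1339 of 3053 genes fell (median -0.08). β-actin, Actb, stood at 6172, 6409.8 and 6507 CPM in TGFb and 4941, 5019 and 5039 CPM in SIS3_TGFb (-0.35 ± 0.034), while γ-actin, Actg1, did not pass (-0.05 ± 0.034). Thymosin β4, Tmsb4x, which binds free actin, fell from 6567 ± 310.1 to 4758 ± 37.0 CPM (-0.46 ± 0.040), and the Arp2/3 subunit Arpc4 by a log2 change of -0.48 ± 0.034. Of 27 trafficking receptors and integrins 4 rose, 8 fell and 15 did not pass, with the integrin chain Itgb2 lower (-0.48 ± 0.036) and the early activation antigen Cd69 higher, from 75.5 ± 6.32 to 154 ± 10.2 CPM (1.03 ± 0.060). Over all tested genes, 21.2% rose and 20.6% fell.

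Among genes of protein disposal the autophagy receptor p62 and a proteasome regulator rose. Sqstm1, which encodes p62 (chromosome 11, 50200152 to 50210820), stood at 1177, 1114 and 1155 CPM in TGFb and 2319.9, 2265 and 2122 CPM in SIS3_TGFb and rose (0.96 ± 0.044). Nfe2l1, a transcription factor that restores proteasome genes, rose from 157 ± 5.17 to 405 ± 11.4 CPM (1.36 ± 0.038). Of 34 proteasome subunits 4 rose, 13 fell and 17 did not pass (median -0.05), while 8 rose and 4 fell without scaling factors (median 0.03). The rises numbered 2 without SIS3_TGFb replicate 3. Of 32 autophagy genes 6 rose, 6 fell and 20 did not pass, while 13 rose and 4 fell without scaling factors. With TMM factors the autophagy shares were 18.8% and 18.8%, near the 21.2% and 20.6% of all tested genes. Proteasome and lysosome counts stand beside the same 21.2% and 20.6%. Of 36 lysosome genes 5 rose, 12 fell and 19 did not pass, while 8 rose and 6 fell without scaling factors, and the rises numbered 3 without SIS3_TGFb replicate 2, SIS3_TGFb replicate 3 or any 1 of the TGFb libraries. The cathepsin Ctsd (-0.25 ± 0.039) fell, and the lipid enzyme activator Psap did not pass (0.05 ± 0.134) but fell without replicate 3 of both groups (-0.28, adjusted p = 0.0018).

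Death genes moved in both directions. Bbc3, which encodes the death protein PUMA, stood at 33.9, 32.4 and 36.4 CPM in TGFb and 63.0, 62.6 and 57.0 CPM in SIS3_TGFb (0.83 ± 0.060), and the inflammatory caspase Casp4 rose by 0.84 ± 0.112. Casp8 (-0.43 ± 0.046), Bak1 (-0.38 ± 0.036) and Bad (-0.36 ± 0.073), which promote death, fell. Of 28 BCL2 family genes and caspases 6 rose, 8 fell and 14 did not pass, beside 21.2% and 20.6% of all tested genes that rose and fell. In this list 11 rose and 5 fell without scaling factors, which turns the balance. Among 26 targets of p53 there were 11 rises and 2 falls, and 13 genes did not pass (median 0.20), beside 21.2% and 20.6% of all tested genes. The p53 target Perp rose (0.66 ± 0.083) and the p53 inhibitor Mdm2 did not pass (0.01 ± 0.034) except without scaling factors (0.10, adjusted p = 0.032). Of 24 purine and pyrimidine synthesis enzymes 4 rose, 10 fell and 10 did not pass (median -0.05), while 5 rose and 4 fell without scaling factors (median 0.04), with a rise of Prpsap2 (0.83 ± 0.062), a regulator of the first step.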

How the data were processed

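Bulk poly(A) RNA of 9 libraries was sequenced as paired reads, and a gene table of expected counts was deposited by the authors, of which 10.2% to 11.1% per library were not whole. RSEM, Bowtie2, HISAT2, DESeq2, StringTie and Cufflinks are listed without roles or versions in the submitters' processing notes, with GRCm38 and mm10 as builds. Here each count was rounded, and filterByExpr selected the genes (minimum count 10, minimum total 15), which left 12212 of 16876. Libraries were scaled by TMM. The test was edgeR 4.0.16's quasi-likelihood test (R 4.3.3) on all 9 libraries with 1 mean per group. P-values were adjusted by Benjamini-Hochberg over all tested genes. In the contrast the 3 further libraries entered only the estimate of the spread. They also took part in the filter, in the TMM factors and in the mean level used for the 4 level classes and the 1 log2 CPM limit. A gene rose or fell at an adjusted p below 0.05. CPM were computed on library totals multiplied by the TMM factors, so they differ by a few percent from plain shares of the counts. Totals of 15714973 to 16718673 counts per library limit precision for low genes, and the biological coefficient of variation was 4.5%. The fit was also run on simulated counts drawn with its own estimated spread and with far fewer changed genes. That run does not check the calls made on these libraries.

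Genes named are the 20 largest rises and 20 largest falls (mean of at least 1 log2 CPM, no overlap) and the 12 largest rises and falls in CPM. Of each list up to 5, 3 and 2 members are named (most significant in the main direction, in the other, and most abundant without a call). Markers, some genes fixed by name and members named for their promoters or as part of a list are added. A rule for called genes near 0 CPM in 1 group (below 0.5, with at least 2 in the other) was met by 0 genes. Numbered gene models (Gm), Rik and LOC symbols and pseudogenes were left out of the 20 largest rises and falls. The comparison, members and lists were chosen with earlier results of these data known. Alternatives were other scaling factors, DESeq2 1.42.0, limma 3.58.1 (voom), other filters, a replicate block, no further libraries, and leaving out libraries. Promoters and coordinates come from RefSeq (GRCm38.p6).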

Additional observations from a re-analysis of the deposited data

How the results depend on the processing

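Of 526 named genes tested, 405 kept their direction and call under all 16 other settings, and 37 of 800 counts over gene lists moved by more than 1.5 times. Without scaling factors 1501 genes fell in place of 2519. The falls in the lists then numbered 5 of NRF2 genes, 1 of complex I, 13 of complexes II to V, 6 of citric acid cycle enzymes, 3 and 1 of large and small ribosomal subunits, 8 of ribosome biogenesis, 3 of the MYC network, 9 of initiation and elongation, 4 of replication, 4 of nucleotide synthesis, 6 of lysosome, 4 of proteasome, 5 of the BCL2 family and caspases, and 5 of iron handling. The falls of zinc transporters and metallothioneins numbered 3 and those of TGF-β feedback regulators and targets 4. The rises numbered 13 of autophagy, 7 of clock, 17 of NF-κB, 8 of complex I, 12 of ribosome biogenesis, 8 of proteasome, 11 of BCL2 family and caspase and 8 of lysosome genes. With DESeq2's Wald test 1874 genes rose and 2251 fell, and 20 small subunit genes fell, 2 TGF-β pathway genes rose and 3 interferon response genes rose. Falls by a log2 of at least 1 numbered 27 among genes with a mean of at least 1 CPM and 92 without replicate 3 of both groups, and 41 to 68 with 1 library left out at a time. Without replicate 3 of both groups 3 complex I, 13 large subunit and 3 small subunit genes fell, 17 mitosis and 3 interferon response genes rose, and 9 interferon response genes fell in place of 3. With 1 library left out, falls ranged from 2164 to 2347 over all genes, 1 to 7 in complex I, 13 to 21 in the large subunit and 4 to 16 in the small subunit, and rises from 2131 to 2384 over all genes, 23 to 35 in mitosis, 3 to 6 in the TGF-β pathway and 3 to 6 in interferon response. Without scaling factors the falls of Ctsd (-0.16), Eef1a1 (-0.09), Eef2 (-0.13), Ftl1 (-0.14), Hsp90ab1 (-0.16), Il2rb (-0.15), Nkg7 (-0.09) and Scd2 (-0.15) were smaller by more than 1.5 times, with the calls kept. Signs turned without replicate 3 of both groups for 9 genes that had not passed, and with 1 or both of these or another library left out the log2 change ranged from -0.58 to 0.26 for Apoe (-0.45 without SIS3_TGFb replicate 3), -0.19 to 0.24 for Cd68, -0.31 to 0.35 for Cd74, -0.37 to 0.25 for Csf1r, -0.20 to 0.09 for Fth1, -0.30 to 0.27 for H2-Aa, -0.32 to 0.29 for H2-Ab1, -0.29 to 0.32 for Lyz2 and -0.28 to 0.16 for Psap. Apoe, Cd68, Csf1r and Lyz2 belong to the macrophage markers, and Cd74, H2-Aa and H2-Ab1 to the dendritic cell markers. The cause of these turns was not tested. Same-numbered libraries of the groups did not deviate together (correlations of -0.006, -0.147 and -0.114), so the numbers were not taken as pairs, and with a replicate block 2424 genes rose and 2379 fell.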
